A study of Mus musculus with 12 samples.

Results

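The GABA-A receptor subunit genes described here were Gabra2, Gabra3, Gabra4 and Gabra5 of the α class, Gabrb1 and Gabrb2 of the β class and Gabrg1 of the γ class. They were chosen by name, with no threshold on any measured value, and made up 7 of the 47069 genes in the expression table. The choice was made with earlier results of these data known. The study had itself named GABA receptors among the genes that contributed to its P7 signatures. Counts of called genes are therefore a description and no independent test. All 7 passed the filter on low values, which kept 18319 genes with at least 0.7 CPM (read counts scaled to library size) in at least 3 of the 12 libraries. A GABA-A receptor is a chloride channel assembled from several subunits around a central pore and opened by the transmitter GABA. The β and α subunits together form the sites that bind GABA, the α subunit shapes how readily the channel opens and closes, and a γ subunit helps to set where the receptor sits and how it responds to benzodiazepines. Oligodendrocyte precursor cells (OPCs), the dividing cells that give rise to myelinating oligodendrocytes, are known to carry GABA-A receptors and to receive GABA from neurons.

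Total RNA had been sequenced from cells of Pdgfra-H2BGFP mice, a knock-in line in which the regulatory region of Pdgfra, the platelet-derived growth factor receptor gene widely used to mark OPCs, drives a nuclear green fluorescent protein (GFP). GFP+ cells were sorted from brain (forebrain, per the study's methods) and from spinal cord, in embryos at E13.5 (days of gestation) and in pups at P7 (days after birth). The 4 groups of 3 libraries carried no other treatment or genotype. Cells of several animals were pooled for each library, and the number of animals behind each library was not used here. The nuclear GFP outlasts Pdgfra mRNA, so that the sort at P7 can hold cells past the precursor stage, and all groups, the controls of each comparison included, carried the same reporter. Embryonic tissue was dissociated mechanically and P7 tissue with papain, so that the effects of age and of dissociation cannot be told apart wherever P7 is set against E13.5. The libraries held between 12566345 and 38790312 reads recovered from the CPM steps. E13.5 spinal cord replicate 3 stood apart, with 41.0% of its reads in protein-coding genes and 3 reads worth 0.506 CPM, against 82.4 to 91.2% in the other libraries. P7 replicates 1 and 2 were closer to each other than to replicate 3 in both regions (chi-square per degree of freedom 2.43 in brain and 3.65 in spinal cord, against 17.0 or more in any other pair of libraries of the same group). They differed by more than sampling noise and were kept as separate libraries, which does not show that they came from separate pools. The methods call the replicates biological but do not say which animals entered which pool, so that p-values measure the spread between these libraries.

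The sorted cells carried the transcript they were sorted for, with Pdgfra at 341 to 787 CPM in the 6 E13.5 libraries and at 2014 to 3402 CPM in the 6 P7 libraries. Of 10 OPC markers, 9 were called higher at P7 in each region, against 11% of all genes in brain and 16.9% in spinal cord. The other 1 was called lower in spinal cord and was not called in brain. At E13.5, 5 of the 10 were called higher in brain than in spinal cord, against 3.53% of all genes. Other marker lists moved with age and region too, and their values are given here and beside the results they move with. The summed level of 12 vascular and leptomeningeal markers was 6321 to 9519 CPM in E13.5 brain, 11770 to 13170 CPM in E13.5 spinal cord and 1283 to 2749 CPM over the P7 libraries. The 12 neuron markers summed to between 1454 and 1901 CPM in every library, a sum in which Map2 alone was 612 to 1081 CPM. With age 2 of them were called lower in brain, against 16.7% of all genes. In spinal cord 6 were called lower, against 18.2% of all genes, and 2 higher (median log2 difference -0.28 in brain and -1.045 in spinal cord). Among those lower, Tubb3, a neuronal tubulin, was at 232 to 405 CPM at E13.5 and at 17.7 to 40.8 CPM at P7. The 15 measured markers of committed and newly formed oligodendrocytes summed to 220 to 284 CPM at E13.5, 2848 to 5560 CPM in P7 brain and 19240 to 24210 CPM in P7 spinal cord. The 12 radial glia and astrocyte markers summed to 1773 to 2819 CPM at E13.5 and 1228 to 2146 CPM at P7. That sum hides movements in both directions. In brain 7 of these markers rose with age by call and 3 fell (median log2 difference 1.17). In spinal cord 6 rose and 4 fell (median 0.455). Mean levels in brain went from 0.281 to 31.6 CPM for Aqp4 and from 42.3 to 335 CPM for Slc1a2. Vim went from 633 to 81.1 CPM there. The 6 endothelial markers summed to 50.1 to 123 CPM at E13.5 and 21.1 to 33.7 CPM at P7. For the 7 erythroid markers the sums were 36.9 to 119 CPM and 3.29 to 22.9 CPM. The 8 microglia markers summed to 7.03 to 10.6 CPM in E13.5 brain, 14.5 to 16.7 CPM in E13.5 spinal cord, 27.4 to 61.3 CPM in P7 brain and 4.72 to 14.4 CPM in P7 spinal cord, with 6 of the 7 tested called higher at P7 in brain and 1 in spinal cord. The part of these cells in the subunit levels was not tested, and in bulk libraries fewer cells of a type and less RNA per cell cannot be told apart.

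Of the 7 genes, 4 lie in a cluster on mouse chromosome 5 (coordinates in GRCm38, the mm10 build, from GENCODE M21). In that cluster Gabrg1 spans chr5:70751047-70842617 and Gabra2 chr5:70957597-71095849, both on the minus strand. Next to them Gabra4, at chr5:71569749-71658308 on the minus strand, lies head to head with Gabrb1, at chr5:71658113-72149037 on the plus strand. The annotated exons of Gabra4 and Gabrb1 overlap by 46 bases at their 5′ ends. Gabra5 lies at chr7:57407672-57510059 on the minus strand, where 148 of its exon bases face Gm9962, an antisense gene with a mean of 0.0564 CPM. Gabrb2 lies at chr11:42419757-42629028 on the plus strand and Gabra3 at chrX:72432681-72656848 on the minus strand. Gabra4, Gabrb1, Gabrb2 and Gabrg1 transcripts shared no stretch of 50 bases with a transcript of any other gene. Gabra2 shared 0.548% of its 50-base stretches and Gabra3 0.205%, in both cases with many other genes, and Gabra5 shared 3.59% with Gm9962.

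The RefSeq promoter table (GRCm38.p6) held 11 windows of 300 bases for the 7 genes, each running from 250 bases before a transcription start to 50 bases after it. The windows are shown for the head-to-head pair Gabra4 and Gabrb1, for Gabrg1 and Gabra3, whose levels differed most between the ages in both regions, and for Gabra2, the called gene of the cluster with the smallest age difference in spinal cord. Capitals mark CG pairs, the sites at which mammalian DNA is methylated.
Gabra4 (chr5:71658259-71658558, minus strand): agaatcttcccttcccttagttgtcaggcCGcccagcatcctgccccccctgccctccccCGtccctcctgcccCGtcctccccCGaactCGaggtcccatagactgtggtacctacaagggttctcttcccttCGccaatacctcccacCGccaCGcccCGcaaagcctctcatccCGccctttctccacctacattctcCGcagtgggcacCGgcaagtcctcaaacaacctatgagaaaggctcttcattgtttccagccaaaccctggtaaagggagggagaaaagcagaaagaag
Gabrb1 (chr5:71657671-71657970, plus strand): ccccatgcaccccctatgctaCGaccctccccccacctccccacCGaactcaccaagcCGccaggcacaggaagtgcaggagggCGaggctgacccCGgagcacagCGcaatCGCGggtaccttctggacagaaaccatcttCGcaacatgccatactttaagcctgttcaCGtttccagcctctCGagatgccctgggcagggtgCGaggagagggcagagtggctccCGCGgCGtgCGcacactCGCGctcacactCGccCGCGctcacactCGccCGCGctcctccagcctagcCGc
Gabrg1 (chr5:70842568-70842867, minus strand): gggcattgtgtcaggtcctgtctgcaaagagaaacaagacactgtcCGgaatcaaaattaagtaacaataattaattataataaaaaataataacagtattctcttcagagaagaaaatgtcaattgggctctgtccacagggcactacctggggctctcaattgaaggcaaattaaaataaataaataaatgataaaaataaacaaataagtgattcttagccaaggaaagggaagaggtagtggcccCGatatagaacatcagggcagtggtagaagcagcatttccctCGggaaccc
Gabra3 (chrX:72656870-72657169, minus strand): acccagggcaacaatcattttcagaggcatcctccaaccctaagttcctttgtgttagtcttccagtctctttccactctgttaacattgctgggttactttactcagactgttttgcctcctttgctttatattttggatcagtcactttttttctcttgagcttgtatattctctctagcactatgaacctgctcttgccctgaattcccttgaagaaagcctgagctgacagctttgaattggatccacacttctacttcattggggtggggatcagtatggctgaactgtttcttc
Gabra2 (chr5:71095800-71096099, minus strand): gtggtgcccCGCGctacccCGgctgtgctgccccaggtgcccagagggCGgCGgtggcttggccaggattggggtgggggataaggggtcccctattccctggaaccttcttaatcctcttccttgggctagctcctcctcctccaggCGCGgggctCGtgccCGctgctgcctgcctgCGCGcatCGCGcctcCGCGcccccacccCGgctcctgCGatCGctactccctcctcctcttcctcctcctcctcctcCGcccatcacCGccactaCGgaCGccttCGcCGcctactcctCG
The RefSeq starts of Gabra4 and Gabrb1 were 387 bases apart, and a second Gabrb1 start lay 41624 bases from that of Gabra4. CG pairs numbered 25 in the Gabra2 window and 25 in the Gabrb1 window shown, 12 in that of Gabra4, 3 in that of Gabrg1 and 0 in both windows of Gabra3. Over all 32851 windows of the table the median was 7 CG pairs, 5.43% of windows had none and 18.4% had 25 or more. Letters for 5 motifs were searched on both strands. The GC box GGGCGG was found in the Gabra2 and Gabra4 windows (2 matches each) and in 1 Gabrb2 window, and in 35.7% of all windows. TATAAA was found in both Gabra3 windows, which overlap each other, and in 1 Gabrb2 window, and in 13.6% of all windows. ACAAAG, a core bound by SOX proteins, was found in 1 Gabra3 window and in 18.7% of all windows. The remaining motifs, CCAAT (37.4% of all windows) and the E-box CANNTG (72.3%), occurred in windows of Gabra2 and Gabrg1 among others. A match is only a match of letters.

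The comparison of P7 with E13.5 asks how the subunit genes of Pdgfra-H2BGFP+ cells change between the embryo and the first postnatal week. Most were higher at P7 in both regions, with Gabrg1 differing most in each region, Gabra2 least in brain and Gabra5 least in spinal cord. In brain 5 of the 7 genes were called higher and none lower, a call being a Benjamini-Hochberg adjusted p under 0.05 in limma together with a difference of more than 2-fold on the log2(CPM + 0.5) scale. Over all genes tested 11% were called higher and 16.7% lower in brain. In spinal cord 6 of the 7 were called higher and none lower, against 16.9% of all genes higher and 18.2% lower. None was lower in either region at an unadjusted p under 0.05 in limma, or called lower by limma-voom, edgeR or DESeq2 on recovered reads (0 each). The median log2 difference of the 7 genes was 1.97 in brain, against -0.19 over all genes, and 2.35 in spinal cord, against 0.12. All 3 P7 libraries lay above all 3 E13.5 libraries for 7 of 7 genes in brain, where 27.8% of all genes did so, and for 6 of 7 in spinal cord, where 39.9% did.

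**Figure D1:**
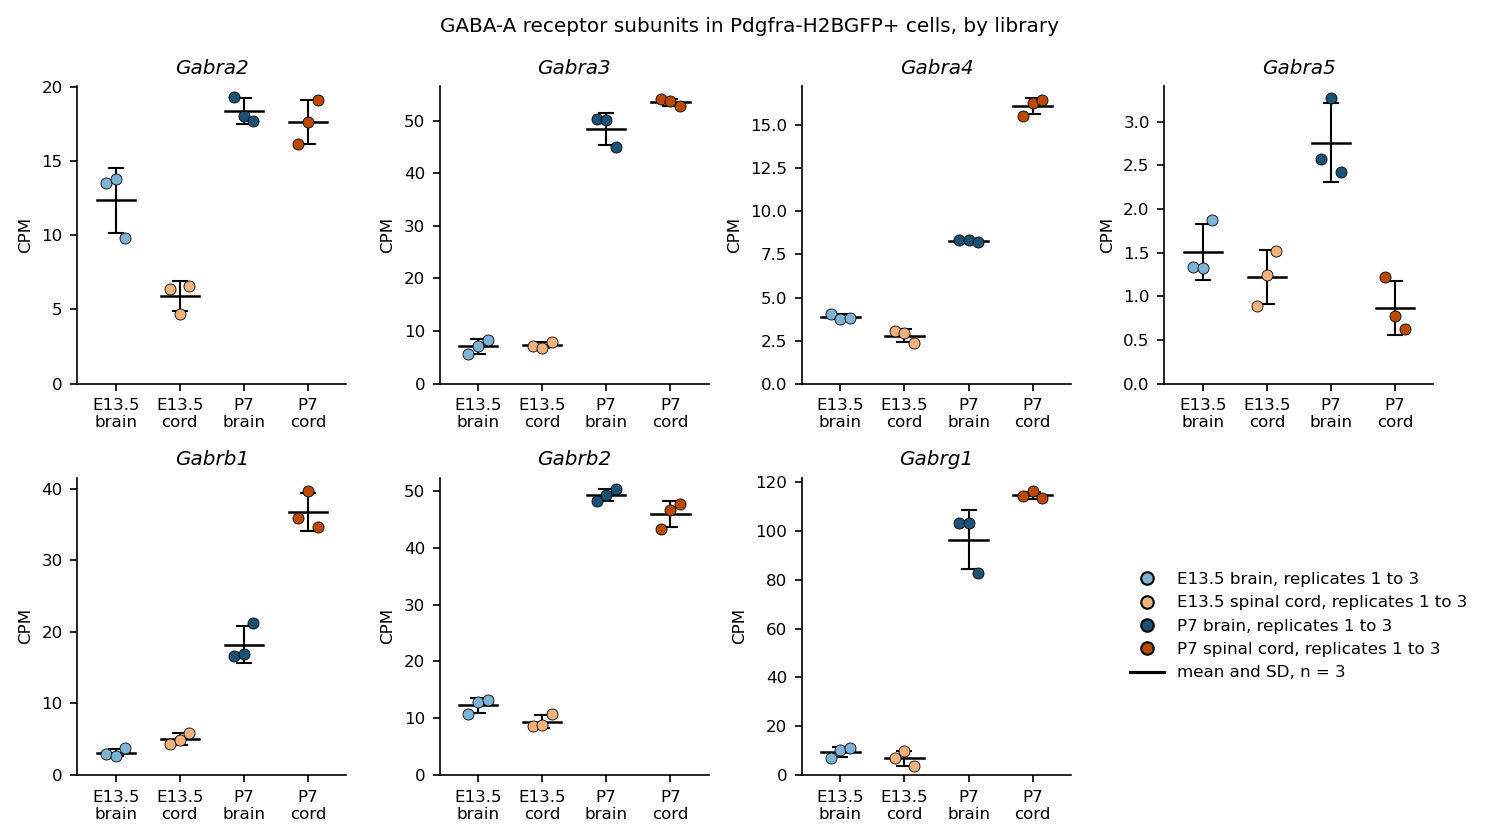
Level of each subunit gene (y axis, CPM, linear from 0) in the 12 libraries (x axis, 4 groups of 3 points, with the mean and SD as black lines). The P7 points lie above the E13.5 points of the same region in every panel except that of Gabra5, where P7 spinal cord (0.620 to 1.22 CPM) overlaps E13.5 spinal cord (0.893 to 1.52 CPM).

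Among the α subunits, Gabra3 had the largest difference with age. This subunit is known for low sensitivity to GABA and is widespread in the embryonic brain. It measured 5.61, 7.20 and 8.37 CPM in E13.5 brain, 50.3, 50.1 and 45.0 CPM in P7 brain, 7.15, 6.85 and 7.93 CPM in E13.5 spinal cord and 54.1, 53.7 and 52.8 CPM in P7 spinal cord. The P7 libraries lay far above the E13.5 libraries in both regions, and the regions were close at each age. The log2 difference was 2.71 ± 0.127 (SE, n = 3 per group) in brain and 2.79 ± 0.127 in spinal cord (limma, adjusted p = 3.99e-09 and 1.82e-09).

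Gabra2 and Gabra4, which sit in the same chromosome 5 cluster, differed with age by less in brain than in spinal cord. Gabra2 measured 13.49, 13.75 and 9.81 CPM in E13.5 brain, 19.3, 18.1 and 17.7 CPM in P7 brain, 6.37, 4.71 and 6.58 CPM in E13.5 spinal cord and 16.1, 17.6 and 19.1 CPM in P7 spinal cord. It was 1.48-fold higher at P7 in brain, with an adjusted p of 0.00653 (limma) but short of the 2-fold required, and 2.86-fold higher in spinal cord (log2 difference 1.51 ± 0.154, adjusted p = 2.02e-06, limma). The P7 libraries of the 2 regions overlapped, whereas the E13.5 spinal cord libraries lay below all others.

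Gabra4, a subunit found at many receptors outside synapses, measured 4.04, 3.78 and 3.81 CPM in E13.5 brain and 8.36, 8.33 and 8.21 CPM in P7 brain. In spinal cord it went from 3.04, 2.93 and 2.36 CPM at E13.5 to 15.6, 16.3 and 16.5 CPM at P7. None of the 4 groups overlapped. The log2 difference with age was 1.01 ± 0.122 in brain (adjusted p = 1.42e-05, limma), just past 2-fold, and 2.35 ± 0.122 in spinal cord (adjusted p = 5e-09). The brain call was lost without E13.5 brain replicate 2 (0.99) or replicate 3 (0.998) and with a pseudocount of 1 (0.93).

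Gabra5, which is known from receptors outside synapses in hippocampal neurons, had the fewest reads of the 7 genes. It measured 1.33, 1.32 and 1.88 CPM in E13.5 brain, 2.57, 3.27 and 2.43 CPM in P7 brain, 0.893, 1.24 and 1.52 CPM in E13.5 spinal cord and 1.22, 0.771 and 0.620 CPM in P7 spinal cord. The smallest of these values, in reads, was 9 in E13.5 spinal cord replicate 3, the library that stood apart. In brain the P7 libraries were all above the E13.5 libraries, with a log2 difference of 0.70 ± 0.210 (adjusted p = 0.0118, limma) that did not reach 2-fold. The same comparison reached 2-fold on recovered reads in edgeR (1.06, adjusted p = 0.00433) and DESeq2 (1.07, adjusted p = 0.000959). In spinal cord the groups overlapped and the log2 difference was -0.34 (95% interval -0.79 to 0.12, adjusted p = 0.172, limma).

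Both β subunits were higher at P7. Gabrb1 measured 2.95, 2.72 and 3.75 CPM in E13.5 brain, 16.6, 16.9 and 21.2 CPM in P7 brain, 4.29, 4.84 and 5.91 CPM in E13.5 spinal cord and 35.9, 39.7 and 34.7 CPM in P7 spinal cord. Its 4 groups were all apart, with spinal cord above brain at both ages. The log2 difference with age was 2.36 ± 0.153 in brain and 2.77 ± 0.153 in spinal cord (limma, adjusted p = 5.72e-08 and 8.7e-09). Gabrb2, which encodes a β subunit abundant at synapses of the mature brain, measured 10.7, 12.9 and 13.2 CPM in E13.5 brain and 48.2, 49.3 and 50.3 CPM in P7 brain. In spinal cord it measured 8.70, 8.76 and 10.8 CPM at E13.5 and 43.3, 46.7 and 47.7 CPM at P7. The ages were far apart in both regions and the regions close at both ages. The log2 difference with age was 1.97 ± 0.109 in brain and 2.23 ± 0.109 in spinal cord (limma, adjusted p = 1.55e-08 and 3.08e-09).

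Gabrg1, a γ subunit found in fewer brain areas than its relatives and in glia, had the largest age difference of the 7 genes in each region. It measured 7.17, 10.4 and 10.99 CPM in E13.5 brain, 103, 103 and 82.7 CPM in P7 brain, 7.09, 9.87 and 3.71 CPM in E13.5 spinal cord and 114, 116 and 114 CPM in P7 spinal cord. The E13.5 regions overlapped, and the lowest E13.5 value came from E13.5 spinal cord replicate 3. The gene was 9.77-fold higher at P7 in brain (log2 difference 3.29 ± 0.259, adjusted p = 3.11e-07, limma) and 16.7-fold higher in spinal cord (4.06 ± 0.259, adjusted p = 2.89e-08). Over 25 alternative settings and left-out libraries its log2 difference stayed between 3.11 and 3.54 in brain and between 3.70 and 4.35 in spinal cord.

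**Figure D2:**
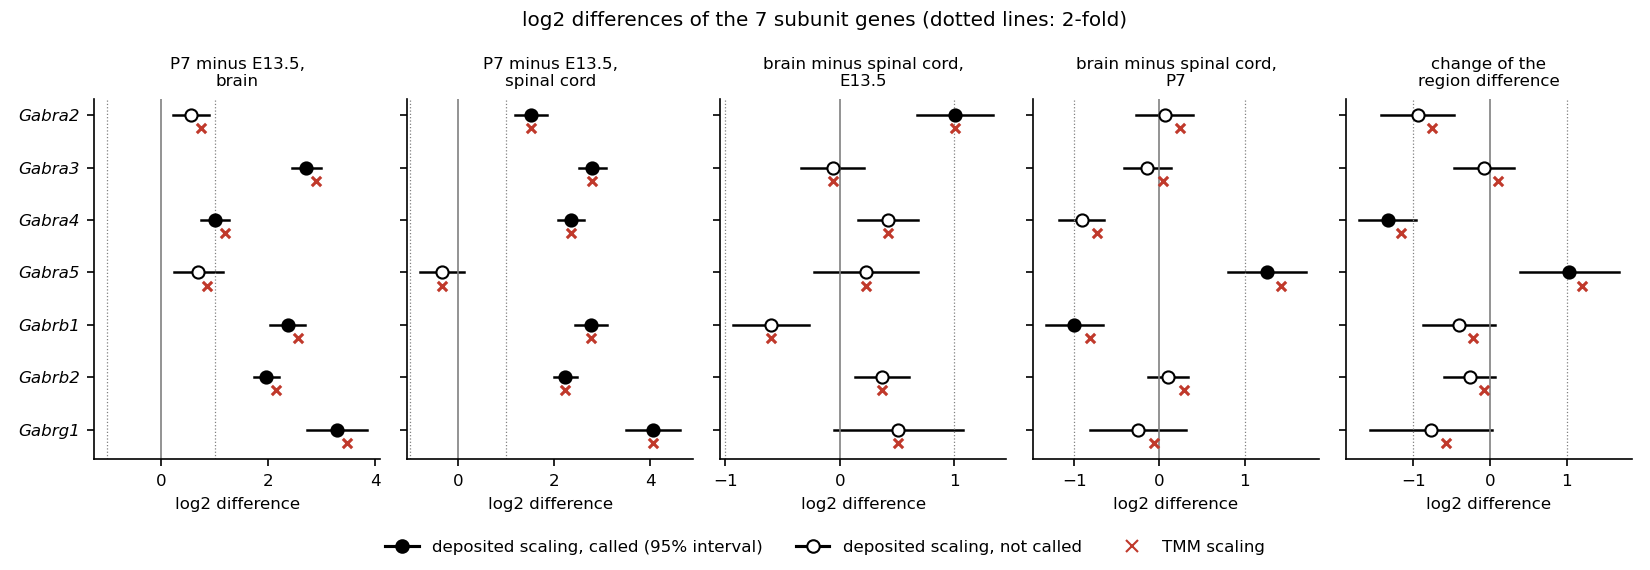
The log2 difference (x axis, on the log2(CPM + 0.5) scale) of each subunit gene (y axis) in the 5 comparisons, with the 95% interval as a line, filled points for called genes and crosses for the value after rescaling by TMM. Gabrg1 has the largest age difference in both regions (3.29 and 4.06), and crosses lie to the right of the points wherever P7 brain is one of the groups.

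P7 brain is the group in which the deposited scaling differed from TMM, a scaling that assumes that most genes are unchanged, recomputed here from the recovered reads. In 9 libraries the deposited factors equalled TMM, and in the 3 P7 brain libraries they were 16.3%, 13.1% and 13.1% higher. The median log2 difference over all genes was therefore -0.19 for age in brain, -0.19 between regions at P7 and -0.24 for how that region difference changed with age, and with TMM it was -0.02, -0.02 and -0.07. Of all called genes, 39.7% were higher at P7 in brain under the deposited scaling and 49.1% under TMM. Between regions at P7 the share higher in brain went from 34.3% to 46.6%, and among genes whose region difference changed with age from 40.8% to 54.9% (65.1% with median-ratio scaling). Every subunit difference that includes P7 brain should be read against these shifts.

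Brain and spinal cord were compared at E13.5 to see whether the subunit genes already differed between regions in the embryo. Gabra2 was 2.01-fold higher in brain (log2 difference 1.01 ± 0.154, adjusted p = 0.000346, limma) and was the 1 gene called, with none of the 7 called lower by limma, limma-voom, edgeR or DESeq2 and 1, Gabrb1, lower at an unadjusted p under 0.05. Among all genes 3.53% were called higher in brain and 5.17% lower. Its call lay at the 2-fold edge and was lost without E13.5 brain replicate 1 (0.94), E13.5 brain replicate 2 (0.92) or E13.5 spinal cord replicate 2 (0.87). With no fold requirement, 4 of the 7 genes and 32.6% of all genes had an adjusted p under 0.05 (limma). In the 3 of these besides Gabra2 the difference was less than 2-fold. Gabra4 was 1.34-fold higher in brain (adjusted p = 0.0187), Gabrb2 1.29-fold higher (adjusted p = 0.0211) and Gabrb1 1.51-fold lower (adjusted p = 0.00989). Beside these values stand the OPC markers, of which 5 of 10 were called higher in E13.5 brain, and their part in the Gabra2 difference was not tested. The log2 difference was -0.06 for Gabra3 (95% interval -0.34 to 0.21), 0.23 for Gabra5 (-0.23 to 0.69) and 0.51 for Gabrg1 (-0.05 to 1.08), none with an adjusted p under 0.05.

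At P7 the called genes were others. Gabra5 was higher in brain, with all 3 brain libraries (2.43 to 3.27 CPM) above all 3 spinal cord libraries (0.620 to 1.22 CPM), at a log2 difference of 1.27 ± 0.210 (adjusted p = 0.000826, limma). Its call held under all 26 alternatives, over which the log2 difference ranged from 1.01 to 1.89. Gabrb1 was called lower in brain at the very edge of 2-fold, at 18.2 ± 2.61 CPM against 36.8 ± 2.62 CPM in spinal cord (SD, n = 3, 95% interval of the log2 difference -1.33 to -0.67, adjusted p = 0.000472, limma). Under TMM that difference was -0.81, and the call was also lost without P7 brain replicate 1 (-0.94), P7 brain replicate 2 (-0.95) or P7 spinal cord replicate 2 (-0.94). Gabra4 was lower in brain too, at 8.21 to 8.36 CPM against 15.6 to 16.5 CPM, a log2 difference of -0.92 ± 0.122 (adjusted p = 0.000164, limma) that fell short of 2-fold. Thus 1 of the 7 genes was called higher in brain and 1 lower, where 2.27% of all genes were called higher and 4.35% lower.

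The remaining 4 genes showed no difference between regions at P7 that passed the test, which uses 1 spread shared by all 4 groups. Under the deposited scaling the P7 libraries of Gabra3, Gabrb2 and Gabrg1 did not overlap between regions, and those of Gabra2 did. The share of all genes without overlap was not computed. Across 26 alternatives both Gabrb2 and Gabrg1 had an adjusted p under 0.05 at least once. Their log2 differences stayed under 2-fold (0.06 to 0.34 and -0.31 to -0.01). Gabra2 differed by 0.06 on the log2 scale (95% interval -0.27 to 0.40) and Gabrb2 by 0.10 (-0.14 to 0.34). Gabrg1 differed by -0.26 (-0.82 to 0.31). Gabra3 differed by -0.14 (-0.42 to 0.13), and its sign turned with the scaling (0.05 with TMM). Beside these region values stand the markers already given, with 11 of 15 markers of committed and newly formed oligodendrocytes called lower in brain at P7. All 7 tested microglia markers were called higher in P7 brain than in P7 spinal cord. Their part in the Gabra4, Gabra5 and Gabrb1 differences was not tested.

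The difference between regions itself changed with age for Gabra4 and Gabra5, as tested by an interaction of age and region in the same limma fit. For Gabra4 the brain-minus-spinal-cord difference went from 0.42 at E13.5 to -0.92 at P7, a change of -1.34 ± 0.173 (adjusted p = 0.000104), and this call held under all 25 alternatives. For Gabra5 it went from 0.23 to 1.27, a change of 1.04 ± 0.298 (adjusted p = 0.0154). The Gabra5 call was lost on omitting any 1 of 6 libraries, namely E13.5 brain replicates 1 (0.97) and 2 (0.97), E13.5 spinal cord replicate 3 (0.91), P7 brain replicate 2 (0.93) and P7 spinal cord replicates 2 (0.995) and 3 (0.90). Over all genes 6.66% were called with a rise of the brain-minus-spinal-cord difference and 9.66% with a fall. Gabra2 changed by -0.95 ± 0.218 (adjusted p = 0.0046), its difference of 1.01 at E13.5 being 0.06 at P7, and this was short of 2-fold. It passed 2-fold in limma-voom on recovered reads (-1.07) and without E13.5 brain replicate 3 (-1.10), E13.5 spinal cord replicate 1 (-1.005), E13.5 spinal cord replicate 3 (-1.03) or P7 spinal cord replicate 1 (-1.01). Gabrg1 changed by -0.77 ± 0.366 (adjusted p = 0.115) and was called (-1.06) without E13.5 spinal cord replicate 2. Gabrb1 changed by -0.40 (95% interval -0.87 to 0.07), Gabrb2 by -0.27 (-0.60 to 0.07) and Gabra3 by -0.08 (-0.47 to 0.31). The region difference also changed for 4 of 10 OPC markers and 10 of 15 markers of committed and newly formed oligodendrocytes, all towards spinal cord, and for 6 of 7 microglia markers, all towards brain, and their part in these changes was not tested. These values share their libraries with the comparisons of age and of region and are no further evidence for them.

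The neighbours Gabra4 and Gabrb1 were set side by side because their starts face each other. Both were higher in spinal cord at P7 and both rose with age in each region. At E13.5, however, Gabra4 was higher in brain and Gabrb1 in spinal cord. The ratio of Gabrb1 to Gabra4 in CPM, a within-library ratio that no scaling changes, was 0.812 in E13.5 brain (0.721 to 0.986 over libraries), 1.85 in E13.5 spinal cord (1.41 to 2.5), 2.20 in P7 brain (1.98 to 2.59) and 2.28 in P7 spinal cord (2.11 to 2.44). The E13.5 brain ratios were below those of every other group, and the P7 regions overlapped. The highest E13.5 spinal cord ratio came from replicate 3, the library that stood apart, with 35 Gabrb1 and 14 Gabra4 reads. The ratio compares each gene with itself across groups and does not say which gene is the more abundant, since the genes differ in length.

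To compare different subunits, levels were divided by the length of the merged annotated exons. At P7 Gabrg1, Gabra3 and Gabrb2 stood above the other 4 genes in both regions. Gabra3 was at 12.4 ± 0.761 CPM per kb (SD, n = 3) and Gabrg1 at 12.3 ± 1.52 CPM per kb in P7 brain, with overlapping libraries, and Gabrb2 followed at 7.74 ± 0.162 CPM per kb, apart from both. In P7 spinal cord Gabrg1 was at 14.6 ± 0.180, Gabra3 at 13.6 ± 0.174 and Gabrb2 at 7.22 ± 0.359 CPM per kb, each apart from the next. The other genes lay between 0.928 (Gabra5) and 2.40 (Gabra2) CPM per kb in P7 brain and between 0.292 (Gabra5) and 2.66 (Gabrb1) CPM per kb in P7 spinal cord. Gabrb1 and Gabra4 overlapped in both P7 groups.

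At E13.5 the levels per kilobase were lower and closer together. Gabrb2 (1.93 ± 0.213), Gabra3 (1.80 ± 0.353), Gabra2 (1.62 ± 0.288) and Gabrg1 (1.21 ± 0.262 CPM per kb) followed each other in E13.5 brain with each overlapping the next. In E13.5 spinal cord Gabra3 (1.86 ± 0.143 CPM per kb) was apart from Gabrb2 (1.48 ± 0.188), which was apart from Gabrg1 (0.876 ± 0.392). Gabrb1 was the lowest in both E13.5 groups, at 0.227 ± 0.0392 and 0.362 ± 0.0594 CPM per kb. The share of Gabra3 in the summed per-kilobase level of the 4 α genes was 39.3% in E13.5 brain (33.2 to 45.6% over libraries), 53.2% in E13.5 spinal cord (52.7 to 53.5%), 72.4% in P7 brain (71.9 to 72.9%) and 72.2% in P7 spinal cord (71.3 to 73.1%). Gabra2 held 35.6%, 21.9%, 14.1% and 12.2% in the same order. With the longest coding transcript as the length, a choice added after the data were seen, the Gabra3 share was 34.7%, 48.3%, 68.1% and 66.8%. The order changed with that length, so that Gabrg1 led in both P7 groups and Gabrb2 in both E13.5 groups, while the upper 3 at P7 were Gabrg1, Gabra3 and Gabrb2 under both lengths.

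**Figure D3:**
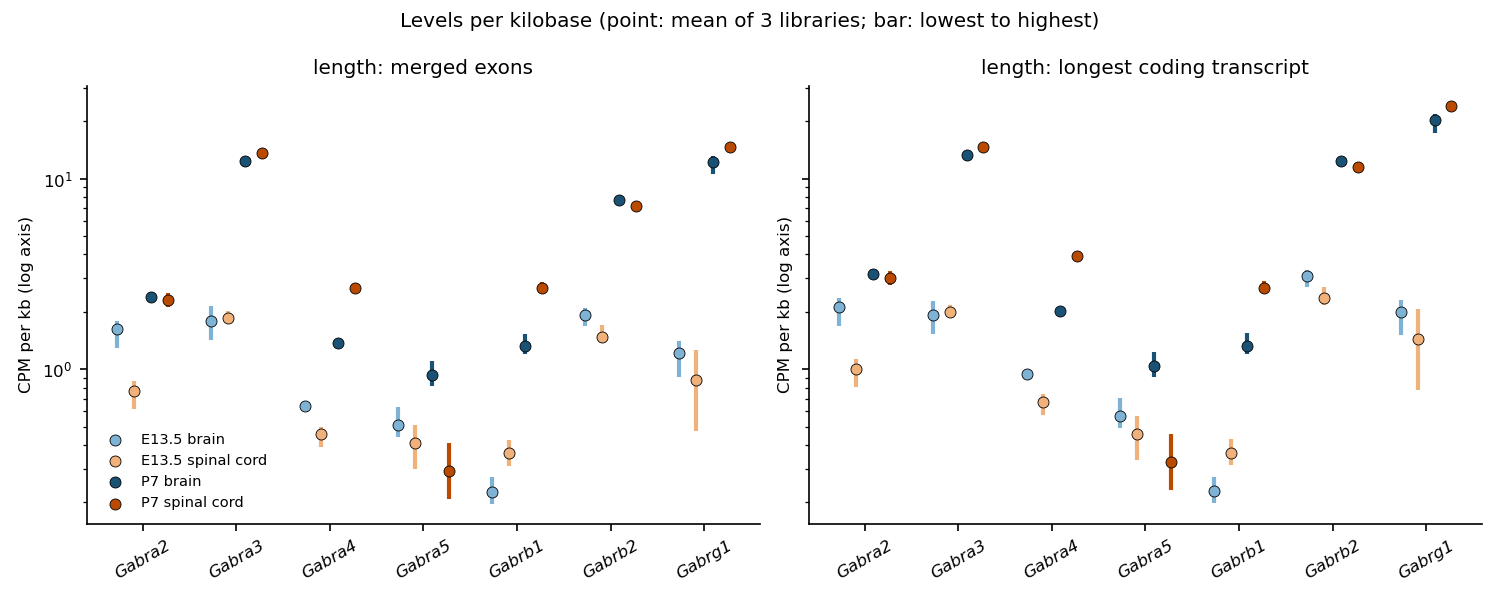
Level per kilobase (y axis, CPM per kb, log axis) of each subunit gene in the 4 groups, with the mean of 3 libraries as a point and the lowest and highest library as a bar, for merged exons (left panel) and for the longest coding transcript (right panel). In both panels Gabrg1, Gabra3 and Gabrb2 at P7 stand above the other genes, and Gabra5 is the lowest at P7.

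Summed over the 7 genes, the level was 45.3 to 52.0 CPM in E13.5 brain and 37.5 to 39.2 CPM in E13.5 spinal cord. At P7 it was 228 to 249 CPM in brain and 281 to 291 CPM in spinal cord. No groups overlapped under the deposited scaling. Its factors were 16.3%, 13.1% and 13.1% above TMM in the 3 P7 brain libraries, which lowers those sums. Whether the P7 regions stay apart under TMM was not tested. Across the 12 libraries the log2 levels of Gabra3 and Gabrb2 moved most alike (Pearson r = 0.99), followed by Gabra3 and Gabrg1 (r = 0.98). Gabra5 was the gene least like the others, with r between -0.14 (Gabra4) and 0.24 (Gabrb2). Both ages enter every one of these correlations, which are given as a description. Outside the family, the tested genes with the pattern most like each subunit were found by the same measure over 12 libraries. They included Cdkn1b (r = 0.98) and Pcgf5 (r = 0.97) for Gabra2, Amz1 (r = 0.998) for Gabra3, and Pdpr, Rbsn and Cpd (each r = 0.99) for Gabra4. Coch (r = 0.90) was among those for Gabra5, Arhgef28 (r = 0.998) and Sv2a (r = 0.99) among those for Gabrb1, Cd9 (r = 0.999), S100a16 and Luzp2 (both r = 0.996) for Gabrb2, and Fbxo7 (r = 0.996) and Slc13a5 (r = 0.995) among those for Gabrg1.

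The 12 other GABA-A subunit genes served as a frame for the 7. Of these, 6 passed the filter on low values. In brain 4 of the 6 were called higher and 1 lower at P7, against 11% and 16.7% of all genes. In spinal cord 4 were called higher and none lower in limma, against 16.9% and 18.2% of all genes. There 2 were lower at an unadjusted p under 0.05 in limma, and limma-voom, edgeR and DESeq2 each called 1 lower, Gabre. Gabrq, the θ subunit gene, measured 2.47, 3.56 and 3.70 CPM in E13.5 brain and 15.8, 15.8 and 11.9 CPM in P7 brain. In spinal cord it went from 1.25, 1.87 and 0.506 CPM to 23.9, 21.7 and 17.4 CPM, the largest fitted age difference of the 6 there (log2 difference 3.73, adjusted p = 9.64e-08, limma). Like Gabra4, Gabrq was called for a change of the region difference (-1.72, adjusted p = 0.00389). Gabrg3, a γ subunit gene, was higher at P7 by 1.61 in brain and 1.51 in spinal cord on the log2 scale (limma, adjusted p = 3.44e-06 and 4.14e-06). Gabre, the ε subunit gene, went the other way, from 1.71 to 2.38 CPM in E13.5 brain to 0.298 to 0.423 CPM in P7 brain (log2 difference -1.56, adjusted p = 0.000124, limma). Among the genes under the filter, Gabra6, a subunit of cerebellar granule cells, was at 0 in 11 libraries and Gabrp at 0 in 11, where a count of 0 allows up to 0.0792 to 0.506 CPM depending on the library.

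Genes that anchor and move GABA-A receptors were called in both directions, more of them higher than lower at P7. Of 22 listed genes, all tested, 10 were higher and 2 lower at P7 by call in brain, against 11% and 16.7% of all genes. In spinal cord 13 were higher and 2 lower, against 16.9% and 18.2% of all genes. The median log2 difference was 0.80 in brain and 1.13 in spinal cord. Slitrk3, an adhesion protein of inhibitory synapses, differed by 3.09 in brain and 3.45 in spinal cord on the log2 scale (limma, adjusted p = 9.73e-10 and 3.08e-10). Gphn, which encodes the scaffold gephyrin, differed by 1.25 and 1.27 (adjusted p = 5.26e-07 and 2.93e-07, limma). Shisa7, an auxiliary subunit of the receptor, was higher at P7 by 2.14 and 1.86, Nlgn2, a postsynaptic adhesion protein, by 1.17 and 1.04, and Hap1, a trafficking adaptor, by 1.87 and 2.94. Iqsec3 and Nrxn3 were the 2 genes called lower in each region, with log2 differences of -1.54 and -3.52 for Iqsec3 and -1.24 and -1.28 for Nrxn3.

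Genes of GABA synthesis, transport and breakdown went both ways. At P7, 5 of 11 were called higher and 2 lower in brain, against 11% and 16.7% of all genes. In spinal cord 4 were higher and 4 lower, against 16.9% and 18.2% of all genes. Of the genes that mark cells releasing GABA, Gad2 and Slc32a1 were called lower at P7 in both regions and Gad1 in neither. Gad2, a GABA-synthesizing enzyme, was at 44.7 to 61.8 CPM in E13.5 brain and 2.61 to 3.88 CPM in P7 brain, and at 25.7 to 34.4 CPM against 1.06 to 1.43 CPM in spinal cord (log2 difference -3.85 and -4.10, limma, adjusted p = 2.73e-09 and 9.77e-10). Slc32a1, the vesicular GABA transporter, differed by -2.72 and -3.10. Gad1, the other GABA-synthesizing enzyme, was at 30.8 to 59.4 CPM in E13.5 brain and 24.1 to 25.7 CPM in P7 brain, short of 2-fold (log2 difference -0.81, adjusted p = 0.00315, limma), and differed by 0.15 in spinal cord (adjusted p = 0.503). Slc6a11, a GABA transporter of astrocytes, was higher at P7 by 3.72 in brain and 2.83 in spinal cord, and Aldh5a1, an enzyme of GABA breakdown, by 1.82 and 1.90.

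Of the 6 chloride cotransporter and channel genes, none was called higher at P7 in brain by limma, limma-voom, edgeR or DESeq2, and 1 was called lower. There 2 were higher at an unadjusted p under 0.05 in limma. In spinal cord 1 was called higher and 3 lower. For this list and those of GABA-B and glycine receptors, the shares of all genes were 11% higher and 16.7% lower in brain. They were 16.9% and 18.2% in spinal cord. Slc12a5, which encodes the chloride extruder KCC2 of neurons, was at 11.4 to 13.1 CPM in E13.5 brain and 12.8 to 14.1 CPM in P7 brain. In spinal cord it went from 23.9 to 28.7 CPM at E13.5 to 10.8 to 11.8 CPM at P7 (log2 difference -1.13, adjusted p = 9.51e-07, limma). Slc12a7 was lower at P7 by a log2 difference of -2.68 in brain and -2.93 in spinal cord. The GABA-B receptor list held the 2 receptor genes and 4 genes of KCTD proteins, which associate with the receptor. Of these 6, 3 were called higher in brain (Gabbr2 and 2 KCTD genes), and Gabbr2 was called higher and Kctd12 lower in spinal cord. Gabbr1 was called in neither (log2 difference 0.80 and 0.57). Gabbr2, a subunit of this G-protein-coupled GABA receptor, went from 4.66 to 5.09 CPM in E13.5 brain to 75.2 to 78.9 CPM in P7 brain and from 6.19 to 9.62 CPM to 68.0 to 70.2 CPM in spinal cord. Of the 4 tested glycine receptor genes, which encode the related chloride channels opened by glycine, 1 was called higher and 1 lower in brain, and 2 higher and 2 lower in spinal cord. Glrb was higher at P7 (2.22 and 2.43) and Glra2 lower (-2.18 and -2.98) in brain and spinal cord.

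**Figure D4:**
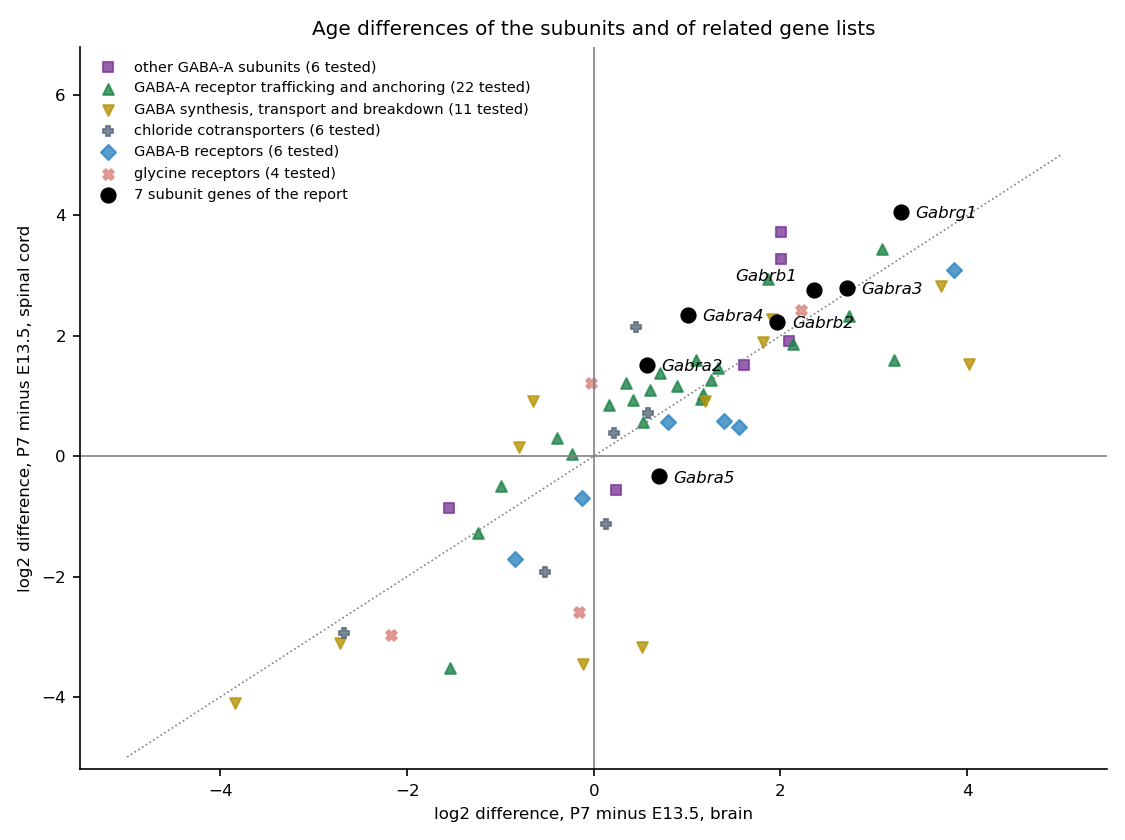
The log2 difference of P7 minus E13.5 in brain (x axis) and in spinal cord (y axis), 1 point per tested gene, for the 7 subunit genes (black, named) and for 6 related gene lists (colours and shapes in the key), with equal differences on the dotted line. Under the deposited scaling 6 of the 7 subunit genes lie to the upper right, above the dotted line, and Gabra5 (0.70 and -0.34) lies below it. A negative change of the region difference places a gene above the line. The median change over all genes was -0.24 (-0.07 with TMM), and that of Gabra3 was -0.08 (0.107 with TMM).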

How the data were processed

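Total RNA libraries of GFP+ cells from Pdgfra-H2BGFP mice (12 libraries, 4 groups of 3, named by sample titles) were sequenced as stranded read pairs by the authors. Per the labels and methods, reads were aligned with STAR 2.5.0a to mm10 and assigned to GENCODE M8 genes by featureCounts 1.5.0-p1, with multi-mapping reads shared fractionally. Whether counting used strand is not given in the sources used here. The authors deposited CPM values scaled by normalization factors and not logged. In 9 columns the sum is within the limit of plain CPM, and 3 columns exceed it and are treated as a scaled signal, which the deposited factors (0.472 to 1.20) account for. All values (100% within 0.01 of a read) were whole multiples of 1 read, which gave 12566345 to 38790312 reads per library. A count of 0 allows up to 3 reads, which covers counting error only.

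Genes reaching 0.7 CPM in 3 or more libraries were fitted by limma 3.58.1 (R 4.3.3, trend, 4 group means) on log2(CPM + 0.5), following the filter, p and fold of the study's methods, with Benjamini-Hochberg adjustment over 18319 genes. Fold changes on this scale understate those of low genes. Calls needed an adjusted p under 0.05 and more than 2-fold. Alternatives changed the pseudocount, filter, scaling, test (limma-voom, edgeR 4.0.16 and DESeq2 1.42.0 on recovered reads), block and libraries. Scripts were tested on simulated data. Lengths and positions came from GENCODE M21 and promoters from RefSeq. Of 152 listed genes, 151 matched. Named genes were the 7 members, listed genes that were called and, per member, the 3 genes of highest r. Some of these are not reported here by name. The members and lists were chosen with earlier results of these data known. Value columns not used numbered 0.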

Additional observations from a re-analysis of the deposited data

Results flagged for a closer look

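The difference between brain and spinal cord changed with age, by a test of that change, for 2 of the 7 subunit genes. Over all genes 16.3% were called in that test. For Gabra4 the log2 difference of brain minus spinal cord was lower at P7 than at E13.5 by a change of -1.34 (SE 0.173, limma, adjusted p = 0.000104, n = 3 libraries per group), and the sign of the difference turned, with all E13.5 brain libraries above all E13.5 spinal cord libraries and all P7 brain libraries below all P7 spinal cord libraries. For Gabra5 it was higher by a change of 1.04 (SE 0.298, limma, adjusted p = 0.0154), on 9 to 99 reads per library. The Gabra4 call held under all 25 alternatives. The Gabra5 call was lost under 7 of 25, among them a pseudocount of 1 (0.835). No cause was tested for either.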

How the results depend on the processing

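Of 35 member results, 19 kept their direction and their call under every alternative. The members called by age in brain (5) and in spinal cord (6) did not leave 1.5 times that count. Between regions at E13.5 the count went from 1 (Gabra2) to 0 with a pseudocount of 1 or median-ratio scaling, to 4 with no fold requirement (added after the data were seen), and to between 0 and 1 on leaving out a library. Between regions at P7 it went from 2 to 1 (Gabra5) with a pseudocount of 1, TMM, median-ratio scaling, edgeR, DESeq2 or P7 replicates 1 and 2 averaged, and to between 1 and 2 on leaving out a library. For the change of the region difference it went from 2 to 1 (Gabra4) with a pseudocount of 1, and to between 1 and 3 on leaving out a library. Signs turned for uncalled values near 0. Gabra3 between regions at P7 was 0.046 with TMM, 0.092 with median-ratio scaling, 0.049 in edgeR and 0.094 in DESeq2, and its change of the region difference was 0.107, 0.242, 0.082 and 0.217. That change lay between -0.23 and 0.042 on leaving out a library, and Gabra3 between regions at E13.5 between -0.185 and 0.084. Gabrb2's change was 0.060 with median-ratio scaling and 0.006 in DESeq2. The cause was not tested.

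With the replicate number as a replicate block the members called stayed at 5, 6, 1, 2 and 2, and with the block within each age at 1, 2 and 2 for the region comparisons. Between brain and cord at E13.5, libraries sharing a replicate number correlated at 0.314, 0.082 and 0.412. With other numbers the values were -0.05, 0.008 and -0.351. At P7 they were 0.013, 0.025 and 0.044, against -0.004, 0.003 and -0.034 with other numbers. The value for a shared number was the higher in each of these pairs, with the widest gap at E13.5 (0.412 against -0.351). Between ages, where libraries cannot share animals, gaps also occurred. There the shared number had the lower value, as for E13.5 brain and P7 brain replicate 1 (-0.213 against 0.036). The exception was E13.5 brain and P7 brain replicate 2 (0.087 against -0.008). The gaps therefore cannot tell whether a replicate number stands for shared animals. The main fit took no pairing, and whether the numbers pair samples was not tested. With no fold requirement 61.3%, 70%, 32.6%, 30% and 39.8% of all genes passed in the 5 comparisons, against 27.7%, 35.1%, 8.71%, 6.62% and 16.3%. Depth limits Gabra5 most, with 9 to 99 reads per library.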
